A study of Mus musculus with 8 samples.

Results

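Müller glia span the thickness of the retina and astrocytes cover its inner surface, and 10 genes known for their use in these glia were followed through retinal development. They were Glul, Slc1a3, Rlbp1, Aqp4, Kcnj10, Car2, Vim, Gfap, Apoe and Clu, chosen by symbol from 21828 genes, and each had a value in all 8 libraries. All 10 are protein-coding genes of the GENCODE annotation of mm9. The mice were normal animals of the ICR strain. Whole retina was taken at embryonic day (E) 15 and E18. At postnatal day (P) 2, P5 and P8 dissociated retinal cells, pooled from several animals, were sorted on Cd73, a surface nucleotidase encoded by Nt5e that marks rods and their precursors, into a positive fraction, Cd73PC, and a negative fraction, Cd73NC. Cd73NC held every retinal cell that did not stain, so Müller glia and astrocytes were part of a mixture with progenitors, interneurons and vessels and were not themselves purified. There was 1 library per condition, so no difference below has a replicate check, and no p-value or standard deviation is given.

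Levels were deposited as FPKM, which are fragments per kilobase of transcript, scaled to the mapped fragments of the library, with lower and upper bounds that cover counting and read assignment within a library but not the spread between animals. Since FPKM is per length, levels of different genes can be set side by side. Differences are given as log2 ratios of FPKM + 1, and a gene is called higher or lower past 1.5-fold on that scale, beside the share of all genes with an FPKM of at least 1 in either library that passed the same fold. A gene under 1 FPKM in 1 library of a pair enters through the other library alone, so it cannot be called higher in the first. In bulk RNA of this kind, fewer cells of a type and less RNA per cell cannot be told apart. The libraries each held 11152 to 12414 genes at an FPKM of at least 1, and their depth relative to E18 ran from 0.966 to 1.62. The sorted gene Nt5e stood at 2.43, 31.4 and 9.38 FPKM in Cd73NC and 97.3, 131 and 124 in Cd73PC, in stage order from P2, so the P5 Cd73NC library had the highest Nt5e of the negative fractions. Rod markers in Cd73NC reached a median of 1.08%, 8.77% and 6.71% of their level in Cd73PC at P2, P5 and P8.

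Müller glia are the last class of cell to leave the progenitor pool of the mouse retina, and they share many genes with the progenitors they come from. Mature Müller glia clear glutamate from the synapses, return retinoid to cones, carry potassium and water away from active neurons, and hold the tissue together with intermediate filaments. Retinal astrocytes do not arise in the retina: they enter along the optic nerve around birth and spread over the inner surface ahead of the vessels. Glul, Slc1a3, Rlbp1, Aqp4, Kcnj10 and Vim are familiar marks of Müller glia, Gfap of astrocytes and of reactive Müller glia, and Apoe, Clu and Car2 are made by several other cell types as well.

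The sequence upstream of 3 of the genes is shown because their levels behaved most differently. Slc1a3 had the widest gap between the fractions at P5 and P8 on the scale used here. Rlbp1 spanned the widest range over the libraries, with Gfap close behind, and Gfap turned over between the fractions. RefSeq's table of the GRCm38.p6 build held an entry for 7 of the 10 genes, and the 250 bases before the annotated start are printed 5′ to 3′. This build is newer than NCBI37/mm9, the one behind the expression values. Capitals mark TATAAA, the core of a TATA box, and TTCNNNGAA, a motif read by STAT factors, on either strand, where TTTATA is TATAAA read from the other strand.
Slc1a3: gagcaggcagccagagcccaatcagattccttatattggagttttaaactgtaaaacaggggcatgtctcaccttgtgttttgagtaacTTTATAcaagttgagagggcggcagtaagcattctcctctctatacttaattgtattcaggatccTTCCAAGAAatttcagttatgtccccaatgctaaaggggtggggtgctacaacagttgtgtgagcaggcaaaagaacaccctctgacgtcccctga
Rlbp1: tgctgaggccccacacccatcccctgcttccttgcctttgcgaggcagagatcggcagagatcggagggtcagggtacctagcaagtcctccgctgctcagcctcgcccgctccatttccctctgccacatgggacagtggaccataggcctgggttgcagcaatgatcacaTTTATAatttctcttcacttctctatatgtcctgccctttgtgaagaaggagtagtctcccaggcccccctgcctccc
Gfap: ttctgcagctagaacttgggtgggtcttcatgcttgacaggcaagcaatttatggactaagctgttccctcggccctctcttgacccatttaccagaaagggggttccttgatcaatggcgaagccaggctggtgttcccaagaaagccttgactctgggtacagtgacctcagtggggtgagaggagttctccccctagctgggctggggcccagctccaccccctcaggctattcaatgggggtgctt
The Slc1a3 window is chr15:8710808-8711057 on the minus strand, with TTTATA starting 161 bases and TTCCAAGAA starting 96 bases before the start. It also held GGGCGG, not in capitals, starting 145 bases before the start. The Rlbp1 window is chr7:79387028-79387277 on the minus strand, with TTTATA starting 78 bases before the start. The Gfap window is chr11:102897201-102897450 on the minus strand and held none of the 6 motifs searched on both strands, which also included TTGGCA for NFI factors, AACAAT for SOX factors, TAATCC for CRX and GGGCGG for GC boxes. Among 32841 upstream windows of the same length, TATAAA was in 12.4%, TTCNNNGAA in 7.02%, TTGGCA in 12.3%, AACAAT in 9.43%, TAATCC in 6.25% and GGGCGG in 32.7%. These matches describe letters and do not locate a bound factor. The C and G content was 44.8% for Slc1a3, 57.2% for Rlbp1 and 55.6% for Gfap, against a median of 52.4% over all windows.

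The first pair of genes handles glutamate. Glul, at chr1:155747075-155756844 in mm9, encodes glutamine synthetase, which turns glutamate taken up by the glia into glutamine. Its level was 176 FPKM at E15 and 214 at E18. The P2, P5 and P8 libraries held 261, 216 and 165 FPKM in Cd73NC and 112, 75.0 and 54.6 in Cd73PC. Glul was thus already abundant in the embryonic retina, was highest in P2 Cd73NC and lower at each later stage in both fractions, and every Cd73NC library lay above every Cd73PC library. Cd73NC exceeded Cd73PC by a log2 ratio of 1.21, 1.51 and 1.58 in stage order.

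Slc1a3, at chr15:8584124-8660807, encodes GLAST, the main glutamate transporter of Müller glia. It stood at 52.1 FPKM at E15 and 77.3 at E18. After birth Cd73NC held 146, 179.6 and 124 FPKM in stage order, and Cd73PC 46.6, 31.8 and 21.0. The Cd73NC libraries were all above the Cd73PC and embryonic libraries, and the postnatal course differed between the fractions, with the highest Cd73NC value at P5 and the highest Cd73PC value at P2. Its log2 ratio between the fractions was 1.63, 2.46 and 2.51, the largest of the 10 genes at P5 and P8 with the pseudocount of 1. As a plain ratio of FPKM it was 5.64 at P5 and 5.91 at P8, and Kcnj10 then came first at P5 with 7.33 and Aqp4 at P8 with 6.88.

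Among 9 partners in glutamate handling, 3, 2 and 3 were higher and 3, 2 and 2 lower in Cd73NC, in stage order, and at P8 this became 2 higher and 3 lower under quantile and median-ratio scaling. Slc6a11, a GABA transporter, took the same side as Slc1a3, with 32.5 FPKM in P2 Cd73NC against 12.7, and 88.9 in P8 Cd73NC against 8.83. The aspartate aminotransferase gene Got1 went the other way, with 49.2 FPKM in Cd73NC and 108 in Cd73PC at P8. Slc1a1, which encodes the transporter EAAC1, was also lower in Cd73NC, at 4.22 against 28.2 FPKM at P2 and 4.35 against 26.1 at P8. Slc1a2, which encodes GLT-1, was lower in Cd73NC at P2, with 12.1 against 39.6 FPKM, and stood at 63.6 and 65.9 at P8. The glutamine transporter gene Slc38a3 was at 52.7 and 40.0 FPKM at P2 and 59.3 and 85.6 at P8, within 1.5-fold at each stage, and lower in Cd73NC at P8 under median-ratio scaling, at a log2 ratio of -0.80, and just past the limit under quantile normalization. Slc1a4, a neutral amino acid transporter gene, was higher in Cd73NC throughout, with 7.24 against 2.66 FPKM at P2. The fraction gap of Glul and Slc1a3 was therefore not shared by the glutamate genes as a list.

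**Figure D1:**
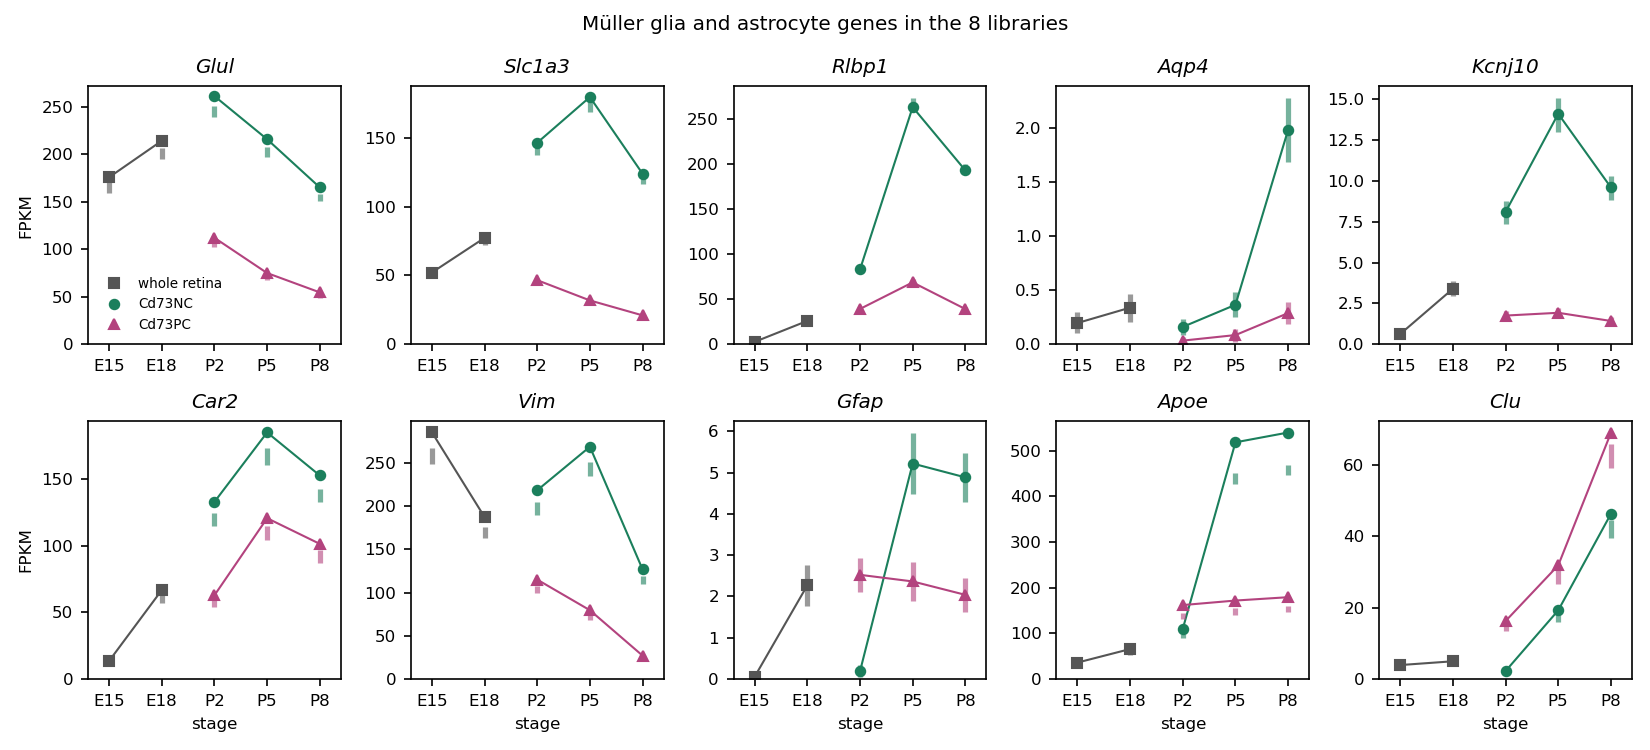
Level of each of the 10 genes in FPKM (vertical axis, linear and separate for each gene) at 5 stages (horizontal axis), in whole retina (squares), Cd73NC (circles) and Cd73PC (triangles), 1 library per point, with a vertical bar spanning the deposited bounds. Slc1a3, Rlbp1, Kcnj10 and Car2 peak in P5 Cd73NC, Gfap and Apoe cross between the fractions from P2 to P5, and Clu is higher in Cd73PC at each postnatal stage. For 6 of the genes some points lie above their own bars.

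Rlbp1, at chr7:86519756-86531913, encodes CRALBP, a retinoid carrier of Müller glia that the pigment epithelium makes too. It was at 2.65 FPKM at E15 and 25.9 at E18. Sorted cells of P2, P5 and P8 gave 83.1, 264 and 193 FPKM for Cd73NC, and 39.2, 68.8 and 39.1 for Cd73PC. No other gene of the 10 spanned so wide a range, the highest library being 99.5 times the lowest. Gfap was close behind at 95.7 times, from an E15 value whose lower bound was 0, so the order of these genes is not resolved. Both fractions peaked at P5, and Cd73NC was above Cd73PC by a log2 ratio of 1.06, 1.92 and 2.28 in stage order. Of 10 other retinoid genes, 1, 2 and 2 were higher and 4, 1 and 2 lower in Cd73NC, in stage order. Under quantile and median-ratio scaling the P5 count became 2 and 2, and the P8 count 1 higher and 4 lower. Rgr, an opsin of pigment epithelium and Müller glia, was lower in Cd73NC at every stage, with 1.18 against 13.6 FPKM at P2 and 9.85 against 16.1 at P8. Rdh10, a retinol dehydrogenase, was close to even at P2, with 33.8 and 32.7 FPKM, and reached 55.5 and 28.7 at P5. Rdh11 was higher in Cd73PC at P8, with 34.4 against 22.0 FPKM. Pigment epithelium markers summed to 2.13, 28.0 and 44.2 FPKM in Cd73NC and to 42.8, 39.7 and 81.1 in Cd73PC, and Rpe65 was listed at 0 in both P2 libraries. The part of pigment epithelium in the Rlbp1 level was not tested.

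The next genes serve the traffic of water, potassium and protons. Aqp4, on chromosome 18, encodes the water channel of glial end feet. It was at 0.197 FPKM at E15 and 0.339 at E18, at 0.161, 0.366 and 1.99 in Cd73NC and at 0.0336, 0.0851 and 0.289 in Cd73PC of the 3 postnatal stages. Aqp4 was the scarcest gene in 7 of the 8 libraries and passed 1 FPKM only in P8 Cd73NC, so its P8 log2 ratio of 1.21 is the only one of the 3 that entered the count of called genes. Its bounds at P8 ran from 1.69 to 2.28 in Cd73NC and from 0.185 to 0.390 in Cd73PC.

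Kcnj10, at chr1:174271341-174304216, encodes Kir4.1, the main potassium channel of Müller glia, and shares its place in the end feet with Aqp4. It was at 0.623 FPKM at E15 and 3.40 at E18. Postnatal Cd73NC held 8.10, 14.1 and 9.61 FPKM, and Cd73PC 1.76, 1.93 and 1.43. Kcnj10 was therefore higher in each later library up to P5 Cd73NC and nearly level in Cd73PC, and it was well ahead of Aqp4: in P5 Cd73NC Kcnj10 was at 14.1 FPKM when Aqp4 was at 0.366. The log2 ratio between the fractions was 1.72, 2.37 and 2.13. Other Kir and aquaporin genes were scarce, with 1 of 7 at 1 FPKM or more at P2 and 3 at P8, when Aqp11 was at 7.33 FPKM in Cd73NC, Kcnj12 at 3.99, and Aqp1 was at 2.98 in Cd73PC. Kcnj13 stayed under 1 FPKM in all 8 libraries.

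The dystroglycan complex anchors both channels to the basal lamina. Of its 10 genes, 3 were higher and 3 lower in Cd73NC at P2, and 5 higher and 2 lower at P5 and again at P8. Agrn, the matrix ligand, was at 32.9 against 21.7 FPKM at P2, within 1.5-fold, and at 53.7 against 17.6 in P5 Cd73NC and Cd73PC. Dag1, dystroglycan itself, was at 66.8 and 35.2 at P5. Dmd, which encodes the scaffold protein dystrophin, was higher in Cd73PC at every stage, with 2.84 against 21.2 FPKM at P2. The ligand gene Agrn and Dmd thus took opposite sides of the sort at P5 and P8. Mlc1, an astrocyte membrane protein, was lower in P2 Cd73NC, with 0.172 against 6.32 FPKM, and higher in P8 Cd73NC, with 17.8 against 5.15.

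Car2, at chr3:14886426-14900770, encodes carbonic anhydrase II of Müller glia, also a major enzyme of red cells. It was at 13.6 FPKM at E15 and 66.8 at E18. Cd73NC then held 133, 185 and 153 FPKM, and Cd73PC 62.9, 121 and 101. Car2 was higher in Cd73NC at each stage, with a log2 ratio of 1.07 at P2, 0.61 at P5 and 0.59 at P8, the last being 1.501-fold and hence right at the 1.5-fold limit. That last call was lost under upper-quartile, quantile and median-ratio scaling, with log2 ratios of 0.57, 0.58 and 0.31, and with the midpoint of the bounds. The P5 call was lost under median-ratio scaling, at 0.39. Erythroid markers, most of it Hba-a1, summed to 106, 1377 and 5171 FPKM in Cd73NC and to 36.5, 938 and 2075 in Cd73PC, and their part in the Car2 level was not tested. Among 8 other genes of the carbonic anhydrase family, listed by name and not by enzyme activity, 2, 3 and 4 were higher in Cd73NC in stage order. In the same order 1, 0 and 0 were lower, with 0 higher and 1 lower at P2 under quantile normalization. The 4 higher at P8 were Car8, Car10, Car11 and Car14. Car14, a membrane enzyme of Müller glia, was at 6.14 against 3.67 FPKM at P2 and reached 34.1 against 6.81 at P8, with Cd73NC the higher. Car10 went from 0.283 FPKM in Cd73NC at P2 to 123 at P8, and Car8 from 0.303 to 13.7. Car10 alone thus made up most of the list's summed 180 FPKM in P8 Cd73NC. Car12 was the gene lower in P2 Cd73NC, with 0.149 against 2.06 FPKM. Car11 was higher in P8 Cd73NC, with 6.38 against 0.633 FPKM.

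Vim and Gfap encode intermediate filament proteins. Vim, at chr2:13495938-13504453, is the vimentin of progenitors and Müller glia. It was at 286 FPKM at E15, the highest of the 10 genes there, and at 187 at E18. Stage by stage from P2, Cd73NC held 218, 269 and 127 FPKM and Cd73PC 115, 79.6 and 27.1. Vim was lower in each later Cd73PC library, while in Cd73NC it was highest at P5. The log2 ratio between the fractions, 0.92, 1.74 and 2.19, was wider at each later stage.

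Gfap, at chr11:102748650-102758514, is the filament protein of astrocytes. It was at 0.0545 FPKM at E15, with a lower bound of 0, and at 2.27 at E18. The Cd73NC libraries of P2, P5 and P8 held 0.187, 5.22 and 4.88 FPKM, and those of Cd73PC 2.52, 2.36 and 2.04. Gfap was therefore nearly level in Cd73PC, and the P2 Cd73NC library stood apart from the E18, P5 and P8 libraries. As log2 ratios Cd73NC stood at -1.57 relative to Cd73PC at P2, and at 0.89 and 0.95 at the later stages. Under quantile normalization the later values kept their sign but were inside the 1.5-fold limit, at 0.46 and 0.45. The bounds at P2 ran from 0.0416 to 0.333 in Cd73NC and from 2.11 to 2.94 in Cd73PC, and did not overlap, nor did those at P5, with 4.48 to 5.95 against 1.89 to 2.84.

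Of 13 astrocyte genes, 11 passed the filter at P2, of which 3 were higher and 8 lower in Cd73NC, while at P5 9 of 12 were higher and 2 lower and at P8 9 of 12 were higher and 1 lower. The order of the list's median turned over between P2 and P5, as that of Gfap did. Pdgfra, the growth factor receptor by which migrating astrocytes are known, was at 2.22 against 15.4 FPKM in the P2 fractions, Cd73NC first, and at 19.6 against 3.91 in those of P5. Pax2, the astrocyte lineage factor, went from 0.0925 against 3.71 FPKM to 3.32 against 0.966. S100b, a calcium-binding protein of astrocytes, went from 0.0358 against 3.76 to 4.54 against 1.63. Pax2 and S100b entered the P2 count through Cd73PC alone and could not be called higher there. The exceptions at P2 were Nr2e1, Cd44 and Ndp, with Nr2e1, a progenitor regulator as well, at 48.0 FPKM in Cd73NC and 19.0 in Cd73PC and Cd44 at 25.4 and 5.25. Gja1, the connexin of astrocyte gap junctions, stood at 1.13 against 4.19 FPKM at P2 and 4.66 against 4.03 at P8. Against most of the list, Fgfr3 was lower in Cd73NC at P5 and P8, and Pdgfa, whose product draws astrocytes along, at P5. The P2 counts and the list's median log2 ratio, -1.11, kept their sign under upper-quartile, quantile and median-ratio scaling, with medians from -1.20 to -1.09. The astrocyte list was chosen with these libraries' earlier results known and is no independent evidence of direction.

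Reactive gliosis genes were scarce. Of 13, only 4 reached 1 FPKM in either fraction at P2, 5 at P5 and 6 at P8. Egr1, an immediate early gene, was lower in Cd73NC at P2, with 9.01 against 17.0 FPKM, and higher at P8, with 34.9 against 15.9. Socs3 stayed under 5 FPKM in all 6 sorted libraries, Tnc too, and Cntf was higher in Cd73PC at each stage, with 1.41 against 3.68 FPKM at P2. Lcn2, a marker of reactive astrocytes, was at 1.52 FPKM in P8 Cd73PC and 0.202 in P8 Cd73NC. Filament partners were also few, with 3 of 5 measured higher and 1 lower in Cd73NC at P2. Nes, the nestin of progenitors, accompanied Vim, with 23.5 against 9.37 FPKM at P2 and 3.01 against 0.987 at P8, while Krt18 was higher in Cd73PC at P2, with 14.4 against 4.71 FPKM, and at P8, with 24.1 against 10.7. Synm, the synemin that pairs with vimentin, was higher in P2 Cd73NC, with 5.96 against 1.87 FPKM, and Plec, the plectin that links filaments, in P5 Cd73NC, with 2.82 against 1.28, a call lost under quantile normalization.

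Apoe and Clu encode secreted proteins of lipid transport and protein folding. Apoe, at chr7:20281593-20284515, is the apolipoprotein of glia and of macrophages. It was at 36.1 FPKM at E15 and 65.7 at E18. From P2 on, Cd73NC held 110.0, 518 and 539.6 FPKM, and Cd73PC 162, 172 and 179. Apoe was close to level in Cd73PC, and from P5 it led the 10 genes in both fractions, with 39.6% of their summed FPKM in P8 Cd73NC. The log2 ratio between the fractions was -0.55 at P2, inside the 1.5-fold limit, and 1.59 and 1.58 at the later stages. Under upper-quartile and median-ratio scaling the P2 value was past the limit, at -0.60 and -0.67.

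Clu, at chr14:66587320-66600382, encodes clusterin. It was at 3.93 FPKM at E15 and 4.99 at E18. The sorted libraries held 2.25, 19.3 and 46.3 FPKM in Cd73NC, and 16.3, 31.9 and 69.0 in Cd73PC. Clu was the only one of the 10 genes that was higher in Cd73PC at all 3 stages, and both fractions were higher at each later stage. As log2 ratios the gap was -2.41, -0.70 and -0.57, narrower at each stage. The P8 value was inside the 1.5-fold limit, and past it under quantile and median-ratio scaling, at -0.66 and -0.84.

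Microglia and pigment epithelium markers moved with Apoe, Clu and Gfap at P2. All 9 microglia markers that passed the filter were lower in P2 Cd73NC, and the 10 summed to 11.9 FPKM there and 68.9 in Cd73PC, then to 87.7 and 56.5 at P5 and 253 and 193 at P8. At P5 4 of 10 were higher in Cd73NC and at P8 1 of 10, with none lower. Under quantile normalization these counts were 1 and 0, with the list's median still above 0. None of the 10 microglia markers was listed at 0 in any library. All 5 measured pigment epithelium markers were lower in P2 Cd73NC. The whole list summed to 2.13 FPKM there and to 42.8 in P2 Cd73PC. Most of the 5 thus entered through Cd73PC alone and could not be called higher. The part of these cells in the Apoe, Clu and Gfap levels was not tested. For Clu the gene with the most similar profile was Ttr, a transthyretin of pigment epithelium, at 0.205 FPKM in P2 Cd73NC against 7.76, and at 25.9 in P8 Cd73NC against 44.4.

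Of 13 lipoprotein partners, 3, 2 and 2 were higher and 3, 1 and 1 lower in Cd73NC, in stage order, and at P5 and at P8 this became 2 higher and 3 lower under quantile and median-ratio scaling. Lrp1, a receptor for Apoe, was higher at all 3 stages, with 13.3 FPKM against 7.85 at P2, a call lost under quantile normalization, and 18.9 against 4.07 at P8. Lrp8, another Apoe receptor, was lower at P2, with 18.6 against 36.4 FPKM, and at 27.3 and 22.0 at P8. Scarb1, the scavenger receptor for high-density lipoprotein, was at 81.2 and 82.9 FPKM at P2 and at 59.0 and 128 at P8. Abcg1 was lower at P2, with 20.2 FPKM in Cd73PC and a log2 ratio of -0.71, and within 1.5-fold at P5 and P8, the P8 value passing it under median-ratio scaling at -0.64. Vldlr stayed within 1.5-fold at all 3 stages, and was lower at P5 under quantile and median-ratio scaling, at -0.63 and -0.68. Receptors and ligand thus did not share 1 order between the fractions.

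The 10 genes were then counted for each comparison. Between the fractions at P2, 6 of 9 measured genes were higher in Cd73NC and 2 lower, where 25.0% and 14.5% of all genes were called in these directions. At P5 8 of 9 were higher and 1 lower, against 27.0% and 12.3%. At P8 9 of 10 were higher and none lower, against 31.3% and 13.0%. The 2 lower genes at P2 were Gfap and Clu, the 1 at P5 was Clu, and Aqp4 did not enter at P2 and P5 because it was under 1 FPKM. Aqp4 entered at P8 through Cd73NC alone and Gfap at P2 through Cd73PC alone, so neither could be called the other way. The counts of higher genes were 7 at P5 under quantile and median-ratio scaling, and 8, 7 and 8 at P8 under upper-quartile, quantile and median-ratio scaling, the genes lost being Car2 and Gfap. The median log2 ratio of the 10 genes was 0.99, 1.55 and 1.58, where that of all genes was 0.14, 0.18 and 0.23. The bounds did not overlap between the fractions for any of the 10 genes at the 3 stages. The same share over all genes was not computed, so this count says nothing particular to the 10 genes. The median for all genes depended on the scaling: by quantile normalization it was 0.03, -0.03 and -0.05, and the shares of all genes called higher and lower became 18.7% and 17.7% at P5 and 21.6% and 20.9% at P8.

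**Figure D2:**
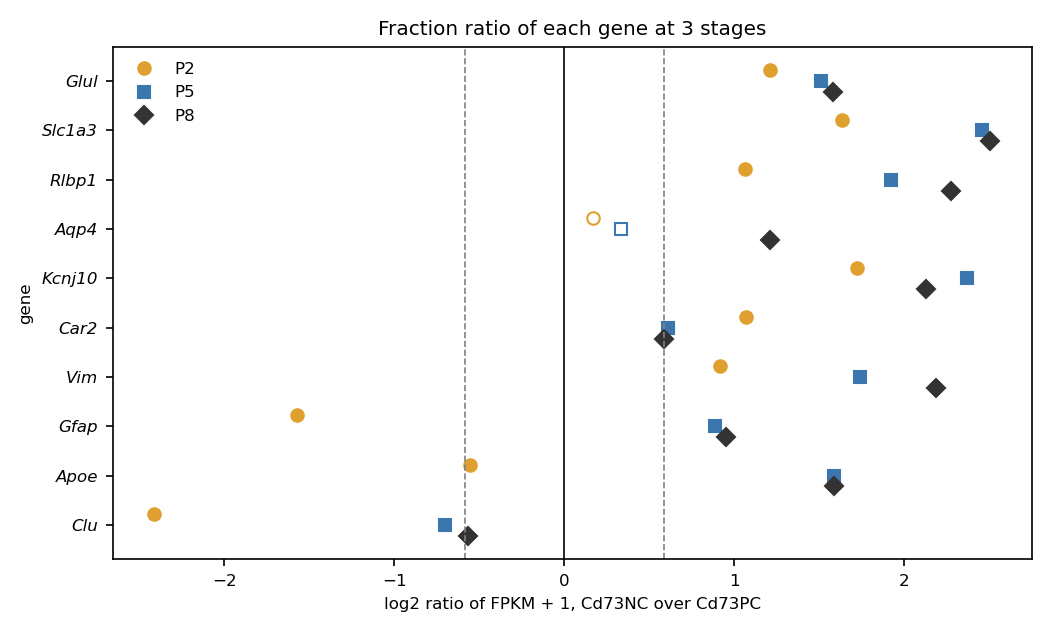
Log2 ratio of FPKM + 1 in Cd73NC over Cd73PC (horizontal axis) for each gene (vertical axis) at P2 (circles), P5 (squares) and P8 (diamonds), from 1 library per fraction and stage. Dashed lines mark 1.5-fold, and open symbols are Aqp4 values under 1 FPKM in both libraries. Gfap lies at -1.57 at P2 and at 0.89 and 0.95 later, Apoe crosses 0 between P2 and P5, and Clu lies below 0 throughout.

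In whole retina from E15 to E18, 5 of 9 measured genes were higher, Rlbp1, Kcnj10, Car2, Gfap and Apoe, and Vim was lower, where 7.59% and 3.47% of all genes were called in these directions. Kcnj10 and Gfap entered through E18 alone and could not be called lower. On the FPKM + 1 scale the log2 ratio was 2.88 for Rlbp1 and 2.22 for Car2, and 1.63 for Gfap. As a plain ratio of FPKM Gfap came first with 41.6, from an E15 value whose lower bound was 0, and Rlbp1 followed with 9.80. From E18 whole retina to P2 Cd73NC, 5 of 9 were higher, Slc1a3, Rlbp1, Kcnj10, Car2 and Apoe, and Gfap and Clu were lower, against 5.47% and 13.3%. Gfap entered there through E18 alone and could not be called higher. From E18 to P2 Cd73PC, Apoe and Clu were higher and Glul, Slc1a3, Kcnj10 and Vim lower, against 14.7% and 30.2%. Under median-ratio scaling Slc1a3, Kcnj10 and Vim were inside the limit, and under quantile normalization Kcnj10 was. Rlbp1, just inside the limit at a log2 ratio of 0.58, was higher with a pseudocount of 0.1, with none, and under median-ratio scaling, at 0.73. Gfap was higher under quantile normalization, at 0.60. Both P2 comparisons share the E18 library, and sorted fractions differ from whole retina in their preparation as well as in age.

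Within Cd73NC from P2 to P5, 5 of 9 measured genes were higher, Rlbp1, Kcnj10, Gfap, Apoe and Clu, and none lower, where 13.1% and 16.3% of all genes were called. Gfap entered through the P5 library alone and could not be called lower. Log2 ratios for Clu, Gfap and Apoe were 2.64, 2.39 and 2.23. Car2, within the limit at 0.47, was higher under quantile normalization, at 0.67. From P5 to P8, Aqp4 and Clu were higher and Vim lower of 10, against 14.1% and 13.2%. Over the whole span from P2 to P8, Rlbp1, Aqp4, Gfap, Apoe and Clu were higher and Glul and Vim lower, against 21.6% and 24.0%. In both comparisons that end at P8, Aqp4 entered through P8 alone, as did Gfap from P2 to P8. The call on Glul, at a log2 ratio of -0.66, was lost under upper-quartile, quantile and median-ratio scaling. The counts from P5 to P8, and the count of lower genes from P2 to P8, were near the shares of all genes. Single genes differed, with Vim at a log2 ratio of -0.78 and Clu at 3.87 from P2 to P8.

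Within Cd73PC fewer genes were higher. From P2 to P5, Rlbp1, Car2 and Clu of 9 measured genes were higher and none lower, where 5.92% and 15.2% of all genes were called. From P5 to P8, Clu was higher and Rlbp1 and Vim lower, against 5.94% and 8.54%. Slc1a3, just inside the limit at a log2 ratio of -0.58, was lower with a pseudocount of 0.1 and with none, at -0.60. From P2 to P8, Car2 and Clu were higher and Glul, Slc1a3 and Vim lower, against 11.2% and 25.7%. Clu was thus the only gene of the 10 to be higher in both steps in both fractions, and Vim the lowest in Cd73PC at P8 relative to P2, with a log2 ratio of -2.05. The 3 steps of a fraction share libraries.

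The level in Cd73PC can be set as a percentage of that in Cd73NC. Over the members at 1 FPKM or more, the median was 47.3%, 33.2% and 27.2% in stage order, with the lowest value of 21.7% at P2 and 13.7% at P5 both for Kcnj10. The highest value was 1350% at P2, for Gfap, and 165% and 149% at P5 and P8, both for Clu. As medians at P2, progenitor markers gave 27.7%, astrocyte genes 370% and microglia markers 549%. The summed FPKM of the 10 genes was 571 at E15 and 648 at E18, and in Cd73NC 963, 1670.1 and 1364, against 558, 584 and 495 in Cd73PC. The 10 genes thus made up at most 0.463% of all FPKM, in P5 Cd73NC. Within that sum the order of levels changed with stage: Vim led at E15, Glul at E18 and in P2 Cd73NC, and Apoe in P2 Cd73PC and in all 4 later libraries. Neighbours in that order were in places close, as Clu and Slc1a3 in P5 Cd73PC, at 31.9 and 31.8 FPKM, or Vim and Slc1a3 in P8 Cd73NC, at 127 and 124.

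Other Müller glia genes lay on the same side of the sort as Slc1a3. Of 26, 17 of 23 measured were higher and 2 lower in Cd73NC at P2, 20 of 24 higher and 0 lower at P5, and 21 of 25 higher and 0 lower at P8, with a median log2 ratio of 1.22, 1.68 and 2.05. Dkk3, a secreted Wnt modulator, was at 489 against 118 FPKM at P2 and at 199.8 against 25.1 at P8. Dbi, an acyl-CoA binding protein, was at 574 and 191 at P5, and Crym, a thyroid hormone binding protein, at 573 and 154. Gnai2 was at 359 and 155 at P2. The 2 lower at P2 were Aldoc, a glycolytic enzyme of astrocytes, at 3.34 against 43.2 FPKM, and Spp1, at 0.472 against 3.80.

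Regulators of glial fate were likewise higher in Cd73NC, with 10 of 13, 11 of 12 and 12 of 13 in stage order. Hes5, a Notch target that favours glia, was at 108 against 25.2 FPKM at P2 and at 30.8 against 7.70 at P8. Id3 was at 101 and 34.9 at P2, and Zfp36l1 at 89.0 and 23.5. Rax, an eye field factor, was at 224 against 254 FPKM at P2 and, lower in Cd73NC, at 81.5 against 198 at P8. At P2 Rax, Nfib and Stat3 were within 1.5-fold, with log2 ratios of -0.18, 0.37 and -0.55, and Stat3 was lower under median-ratio scaling, at -0.64. Stat3 had no estimate in P5 Cd73PC and was left out there. Progenitor markers, which are made by cycling cells and not by mature glia, were higher in Cd73NC for 10 of 10 at P2, 9 of 10 at P5 and 9 of 10 at P8. Their part in the levels of Glul, Slc1a3 and Vim was not tested.

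**Figure D3:**
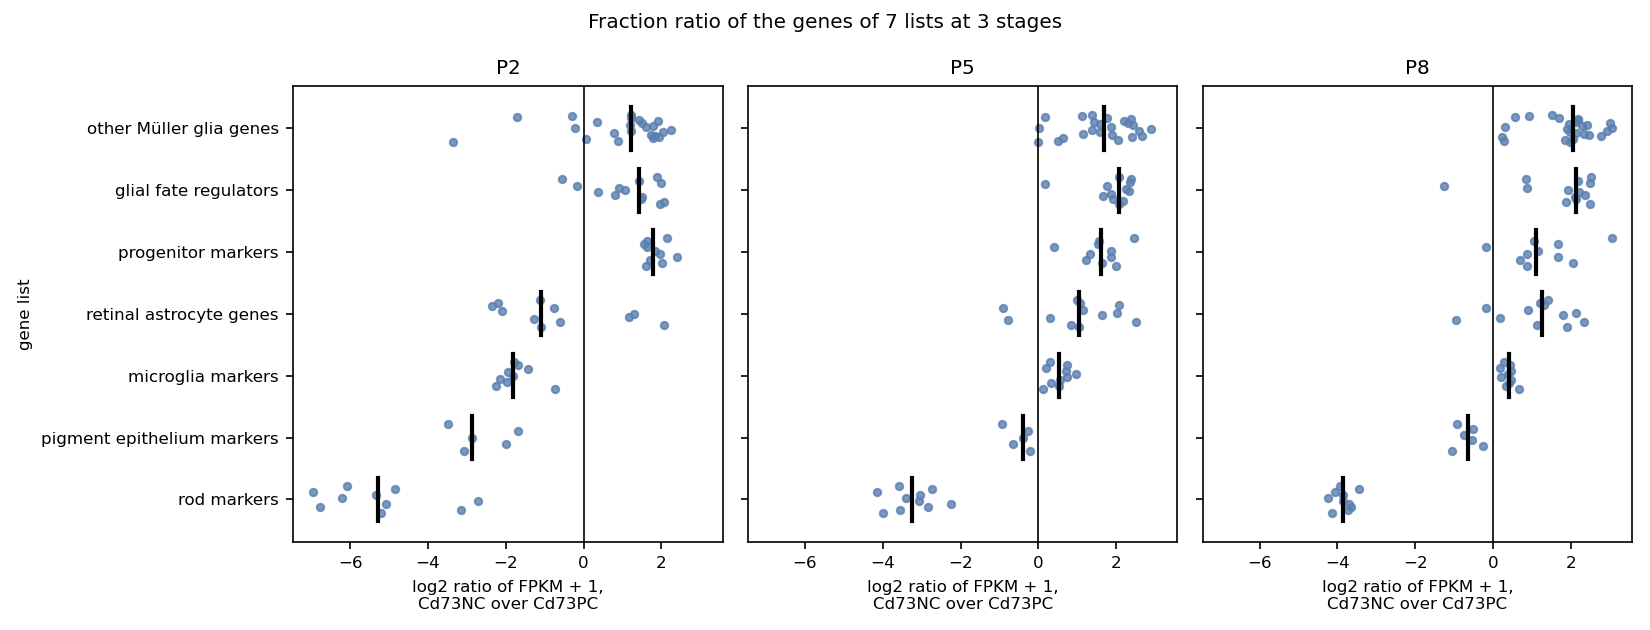
Log2 ratio of FPKM + 1 in Cd73NC over Cd73PC (horizontal axis) for each gene of 7 lists (vertical axis) at P2, P5 and P8 (panels), with 1 library per fraction and stage. Points are genes with an FPKM of at least 1 in either library and black bars are list medians. Astrocyte and microglia genes have medians of -1.11 and -1.81 at P2 and of 1.06 and 0.54 at P5, while other Müller glia genes stay above 0 in the median, at 1.22, 1.68 and 2.05.

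Finally the profiles of the 10 genes over the 8 libraries were set against each other and against other genes, by Pearson's r of log2(FPKM + 1). The 8 points share stage and sort, so r describes likeness over these libraries and carries no test. Of the 45 pairs, 12 had an r above 0.7 and 10 an r below 0, with a median of 0.44. Rlbp1 and Car2 were the closest pair, with an r of 0.96, and Glul and Vim reached 0.91, as did Rlbp1 and Apoe. Vim and Clu were opposed, with an r of -0.76, and Glul and Clu with -0.75. The 10 genes did not share 1 profile over these libraries.

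Set against the means of the 23 lists, Glul lay nearest to glial fate regulators, with an r of 0.98, and then to oligodendrocyte markers, with 0.93. Vim lay nearest to intermediate filament partners and glial fate regulators, both with 0.92, and reached 0.85 with progenitor markers, as against 0.80 for Glul. Slc1a3 and Kcnj10 lay nearest to other Müller glia genes, with 0.97 and 0.92. Clu lay nearest to pigment epithelium and microglia markers, with 0.96 and 0.94, and opposite to progenitor markers, with -0.97. Gfap, Apoe, Rlbp1 and Car2 lay nearest to lipoprotein partners, with r of 0.86, 0.96, 0.91 and 0.87. Aqp4 lay nearest to the list of other carbonic anhydrase family genes, with 0.95. With the astrocyte and microglia lists Gfap reached 0.68 and 0.72, and Apoe 0.67 and 0.78.

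**Figure D4:**
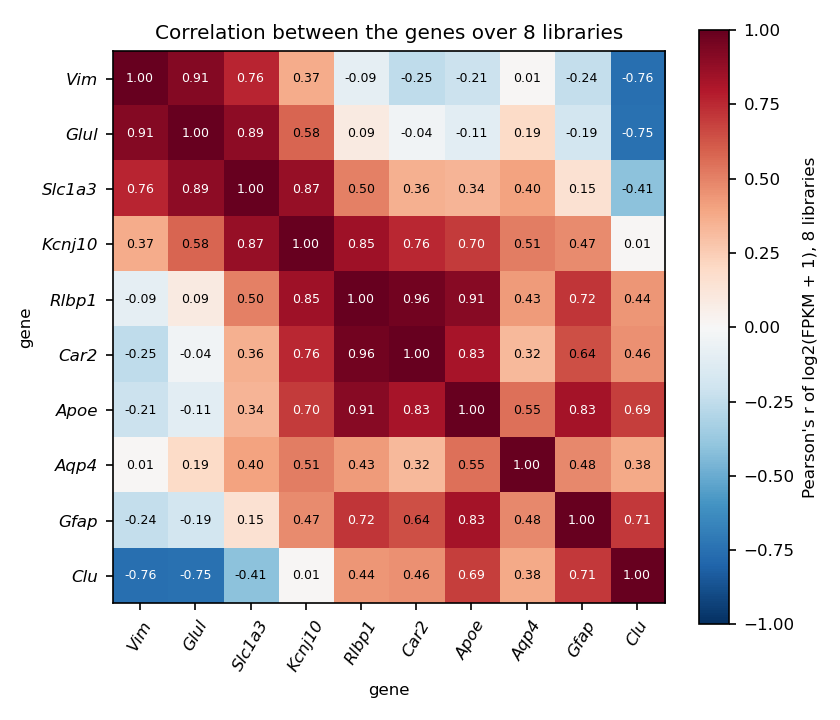
Pearson's r of log2(FPKM + 1) over 8 libraries between the 10 genes (both axes), with colour from -1 (blue) to 1 (red) and the value in each square. Vim, Glul and Slc1a3 form 1 block at the upper left, Rlbp1, Car2 and Apoe another, and Clu is negative against Vim (-0.76) and Glul (-0.75).

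Among 8794 other genes with a maximum of at least 10 FPKM, the nearest to each of the 10 was as follows. For Glul it was Mpzl1, with an r of 0.99, for Slc1a3 Plat, with 0.99, and for Kcnj10 Bves, with 0.99. Rlbp1 and Car2 shared Ttyh1, with 0.98 and 0.96, a channel protein of Müller glia that had 127 against 53.7 FPKM at P2 and 212 against 73.3 at P8. Vim lay nearest to Serpinh1, a collagen chaperone, with 0.99, and Aqp4 to Unc13c, with 0.99. Apoe lay nearest to Pcdhb20, with 0.98, and Gfap to the cone transducin gene Gnat2, with 0.92, the lowest nearest r of the 10. The mean profile of the 10 genes was most like Clrn1, Plod1, Sema5b, Creg2, Darc, Nfia, Mgll, 9130011E15Rik, Nfib and Gm2a, with r from 0.98 down to 0.95. Nfia and Nfib, nuclear factors of gliogenesis, were at 10.4 and 22.7 FPKM in P8 Cd73NC and at 1.20 and 4.16 in P8 Cd73PC. Among the 10 themselves, Kcnj10 was nearest to this mean, with an r of 0.94, and Vim farthest, with 0.23.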

How the data were processed

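RNA of 8 libraries was sequenced as short single-end reads. The FPKM values were deposited by the authors, who per the labels and methods aligned reads with TopHat2 2.0.8b to NCBI37/mm9 and estimated gene levels with Cufflinks 2.1.1, which also gave the bounds. Of the 80 member values, 35 lay above their own upper bound, in 6 genes, with the midpoint of the bounds at 0.846 to 0.961 of the FPKM. The reason was not given in the sources used here.

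From the 23021 rows of each table, 796 small RNA rows were left out and rows of 234 repeated symbols summed, leaving 21828 genes. Failed estimates, at most 10 rows per library, were treated as missing. Ratios used a pseudocount of 1, and the 1.5-fold limit follows the study's methods. With 1 library per condition no test was made. Read totals are unknown, and relative depth was inferred from the ratio at which low FPKM values of unduplicated genes most often stood between libraries. The code for the fold calls was run on simulated data with known changes. Those changes were set far past the limit and only in well-expressed genes, so the run checks the code alone. It does not bear on calls near the limit or at low FPKM. Python 3.11.15, numpy 2.4.6 and pandas 2.3.3 were used.

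The 10 genes, 11 role lists and 12 marker lists were chosen with earlier results of these data known. Genes named from a role list are up to 4 with the highest FPKM, and those past 1.5-fold between the fractions against most of their list. Of these, 2 genes are not reported here. For likeness they are the nearest gene to each of the 10 and the 10 genes nearest to their mean profile. Slc1a4, Mlc1, Pax2, S100b, Lrp1, Stat3, Rpe65, Hba-a1, Kdr, Slc6a9, Pecam1, Cdh5, Tie1 and Esam were named after their values were seen. Alternative pseudocounts, scalings, limits, filters and row choices are in the closing section, and the midpoint of the bounds was added after the data were seen.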

Additional observations from a re-analysis of the deposited data

Results flagged for a closer look

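Each value here compares single libraries, and none of these differences was tested. Gfap lay below Cd73PC in P2 Cd73NC, with a log2 ratio of -1.57, and above it in the P5 and P8 Cd73NC libraries, with 0.89 and 0.95. Apoe did the same, with -0.55 at P2 and 1.59 and 1.58 at the later stages. Slc1a3 and Vim took opposite steps in the fractions from P2 to P5. For Slc1a3 the step was 0.29 in Cd73NC and -0.53 in Cd73PC, and for Vim it was 0.30 and -0.53. All 4 genes are listed because the deposited bounds did not overlap in either pair of libraries while the directions were opposite. The steps of Slc1a3 and Vim were within 1.5-fold, as was the P2 value of Apoe.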

How the results depend on the processing

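No call on the 10 genes turned from higher to lower or back under any pseudocount, scaling or midpoint run. Over these runs 25 losses or gains of a call were counted, 9 of them with median-ratio scaling and 8 with quantile normalization. A call was counted once for each setting that changed it, so fewer separate calls were affected. Each of the 10 genes had 1 row per library, so the row choice could not change its values. That run is still counted among the recomputed values given below. Quantile and median-ratio scaling turned the median of all genes between the fractions below 0 at P5 and P8, and turned counts of the glutamate, lipoprotein and endothelial lists. Under both, the retinoid list went at P8 from 2 higher and 2 lower to 1 and 4. Quantile normalization also turned those of the carbonic anhydrase, filament and amacrine lists, with filament partners going from 3 higher and 1 lower to 1 and 3 at P8 and their median from 0.17 to -0.38. Of 342 recomputed counts, medians and percentages, 327 stayed close to their value and 15 moved, and of 840 single-gene ratios 806 stayed and 34 moved, 15 with a pseudocount of 0.1 and 19 with none. A 2-fold limit in place of 1.5-fold left 0 genes lower in Cd73NC at P5, 0 lower in Cd73NC from P2 to P8, 0 higher in Cd73PC from P2 to P5, 1 lower in Cd73PC from P5 to P8, 1 higher in Cd73PC from P2 to P8, 0 lower from E15 to E18, 2 higher and 1 lower from E18 to P2 Cd73NC, and 0 lower from E18 to P2 Cd73PC. Quantile normalization and median-ratio scaling each gave 1 gene lower in P8 Cd73NC than in P8 Cd73PC in place of 0, which was Clu. Upper-quartile, quantile and median-ratio scaling each gave 1 gene lower in Cd73NC from P2 to P8 in place of 2. Median-ratio scaling gave 1 gene lower from E18 to P2 Cd73PC in place of 4. A stricter limit calls fewer genes by construction, and the cause of the other shifts was not tested.

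No paired analysis was possible within a stage because each condition had 1 library, and leaving out a library was not run. A fit with fraction and stage as terms, which takes the 3 stages as repeats of 1 fraction difference, was not run either. Levels under 1 FPKM, those of Aqp4 before P8 among them, had wide bounds.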

Other observations

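Marker lists of other cells were measured in the same fractions. Bipolar markers were higher in Cd73NC for 1 of 7 and lower for 4 at P2, higher for 5 of 9 and lower for 1 at P5, and higher for 9 of 9 at P8, with a summed level of 1602 FPKM against 220.4 there. Endothelial and pericyte markers were higher in Cd73NC for 3 of 3 measured genes at P2, 3 of 9 at P5 with 1 lower, and 6 of 7 at P8. At P5 this became 1 higher and 4 lower under quantile normalization and 2 and 3 under median-ratio scaling. Kdr, named after its values were seen, held most of the list's summed level, with 139, 143 and 67.5 FPKM in Cd73NC of sums of 172, 173 and 109, while Pecam1, Cdh5, Tie1 and Esam had log2 ratios from -0.44 to -0.68 at P5. Amacrine markers were higher for 5 of 6, 4 of 5 and 2 of 3 measured genes in stage order, with 1 lower each time, and under quantile normalization 0 higher and 1 lower at P8. The lower one was Slc6a9, a glycine transporter gene, with 6.56, 40.7 and 10.4 FPKM in Cd73NC and 47.9, 72.3 and 50.7 in Cd73PC. Horizontal cell markers were higher for 1, 2 and 2 of 3, with 1 lower at P2 and at P8. Ganglion cell markers stood at a sum of 21.7 FPKM in P2 Cd73NC and 12.5 in P2 Cd73PC, against 609 in E18 whole retina. Oligodendrocyte markers were higher in Cd73NC for 1 of 2, 2 of 2 and 3 of 3 measured genes, and lens markers summed to at most 7.74 FPKM in any library. The part of these cells in the levels of the 10 genes was not tested.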
